A study of Homo sapiens with 30 samples.

Results

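RGS2, RGS3, RGS10, RGS12, RGS14, RGS16, RGS19 and RGS20 encode regulators of G protein signalling, and their messenger RNA was followed through 30 RNA-seq libraries of 3 human cancer cell lines. The 8 genes were taken by name from a table of 30373 gene rows, which holds 21 genes named RGS and a number. The lines were HCT116 and COLO205, both from colorectal cancer, and MDAMB231, from breast cancer. Cells received 500 nM ML-792 (also labelled ML00754792), which blocks the enzyme that activates SUMO, or DMSO at 0.01% as vehicle. Each of the 3 lines was held in ML-792 or DMSO for 16 h. HCT116 cells were also held in ML-792 or DMSO for 3.5 h without heat, or were treated for 2 h, heat shocked at 43 °C for 0.5 h and returned to 37 °C for 1 h with the treatment still present. Every one of the 10 groups had 3 libraries, which the labels call biological triplicates.

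Receptors coupled to G proteins act by loading GTP onto a G alpha subunit, and RGS proteins speed the hydrolysis of that GTP and so shorten the signal. RGS2, RGS3 and RGS16 belong to the subfamily of small regulators around RGS4. RGS2 acts mainly on the Gq class, which drives phospholipase C beta, and also binds the translation factor eIF2B, while RGS3 and RGS16 act on the Gi and Gq classes. RGS10, RGS12 and RGS14 form a second subfamily with a preference for Gi, in which RGS12 and RGS14 carry additional G alpha and Ras binding domains. RGS19 and RGS20 form a subfamily of palmitoylated regulators of Gi and Gz. RGS2 is known as an inducible gene whose transcript rises after cell stress or a rise in cAMP.

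Values are FPKM (fragments per kilobase of transcript, scaled to the mapped fragments of the library), a share of each library, so the amount of RNA per cell is not measured. In bulk RNA of this kind, fewer expressing cells and less RNA per cell cannot be told apart. The sum of FPKM per library ran from 461422 to 732251 and was highest after heat shock (608121 to 732251). The number of fragments is not given; ratios of the lowest values put the relative depth of the 18 libraries of 16 h at 0.371 to 0.480 of the deepest library, that of the 6 heat shocked libraries at 0.507 to 0.753 and that of the other 6 at 0.664 to 1.0, with only 8.05 to 14.0% of the ratios at the value used. The library numbers in the labels fall into 3 separate runs of numbers, for the 16 h libraries, the heat shocked libraries and the unheated 3.5 h libraries, and what they stand for is not given in the sources used here. Heat and time therefore cannot be told apart from anything else that differed between these sets of libraries, while ML-792 and DMSO lie within each set. Within groups the lowest correlation of log2 values over genes was 0.996. One library stood apart: in the third COLO205 library with ML-792, 71 genes were over 2-fold below both other libraries of its group and 2 above, 73 in all, against a median of 11 over the 30 libraries. ML-792 changes in COLO205 are given with and without it for the members and for the genes of other lists, the latter after the values were seen. Without it 32.5% of genes were called there, against 37% with it. As a check of the heat labels, HSPA1A, HSPA1B, DNAJB1, HSPH1 and HSPB1 were all higher after heat shock, with log2 changes of 2.94 (HSPB1) to 4.90 (HSPA1A) in DMSO. Of 8 intestinal markers, 5 in COLO205 in DMSO, 3 in HCT116 and 1 in MDAMB231 reached 1 FPKM in every library of 16 h. VIL1, CDH17 and LGALS4 were close to absent from HCT116. KRT20 did not exceed 0.906 FPKM in any library, and CDX1 reached 1 FPKM in 5 of the 30. CDX2 went the other way: it reached 1 FPKM in 19 of the 30 and was 1 of the 3 markers of HCT116. It was not among the 5 of COLO205 in DMSO. All 6 mesenchymal markers were present in MDAMB231 and in HCT116 at 16 h.

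Promoter sequence was available in RefSeq (GRCh38.p14) for 7 of the 8 genes, with none for RGS20. The 250 bases before the transcription start are shown for RGS2, the member that moved most often, and RGS16, its relative on the same chromosome. Capitals mark the core of a cAMP response element (TGACG, or CGTCA on the other strand) and CCAAT boxes (CCAAT or ATTGG).
RGS2, chr1:192808789-192809038, plus strand: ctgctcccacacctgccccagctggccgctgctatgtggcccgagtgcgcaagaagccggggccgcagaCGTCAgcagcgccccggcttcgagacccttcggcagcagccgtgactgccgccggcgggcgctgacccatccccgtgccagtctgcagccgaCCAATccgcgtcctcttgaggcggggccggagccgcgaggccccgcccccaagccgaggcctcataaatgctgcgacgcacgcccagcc
RGS16, chr1:182604390-182604639, minus strand: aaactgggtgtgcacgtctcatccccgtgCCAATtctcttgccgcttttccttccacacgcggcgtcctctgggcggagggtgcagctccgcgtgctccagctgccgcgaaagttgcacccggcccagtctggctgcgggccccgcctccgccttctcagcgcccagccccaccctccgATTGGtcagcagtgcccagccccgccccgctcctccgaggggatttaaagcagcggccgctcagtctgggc

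The RGS2 window held 1 core cAMP response element, starting 181 bases before the start, and 1 CCAAT box at 89 bases. The RGS16 window held 2 CCAAT boxes, at 221 and 71 bases, and no such core. Neither arrangement of the inverted heat shock repeats, GAANNTTC or TTCNNGAA, was in either window. The full cAMP response element TGACGTCA, which contains the core, was in neither window. Over 35116 RefSeq promoters, windows of the same length held GAANNTTC or TTCNNGAA in 11.6%, TGACGTCA in 1.65%, the core in 21.2% and a CCAAT box in 32.0%. A match or its lack describes these letters in this window and was not tested against any measure of binding.

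In vehicle at 16 h the lines carried different sets of RGS transcripts. In HCT116, RGS10 stood at 48.9 ± 3.20 FPKM (SD, n = 3, as for all values below given with ±), RGS2 at 18.4 ± 1.06, RGS19 at 11.4 ± 1.6 and RGS3 at 9.20 ± 0.261. COLO205 had its highest values in RGS3 (27.4 ± 1.56) and RGS14 (17.3 ± 1.06), with RGS10 at 1.80 ± 0.124 and RGS2 at 0.399 ± 0.220. MDAMB231 was near HCT116 in RGS10 (52.3 ± 2.40, called higher by 0.22 with adjusted p = 0.0055 under median-of-ratios scaling and by 0.21 with adjusted p = 0.00751 under equal totals, and not with the values as deposited) but not in RGS2 (1.96 ± 0.254) or RGS16 (0.0350 ± 0.0174). The 8 genes made up 93.9% or more of the FPKM summed over the 21 RGS-named genes in every library. RGS10 alone gave 50.6 ± 0.782% of that sum in MDAMB231 in DMSO and 2.46 ± 0.215% in COLO205, where RGS3 gave 37.4 ± 1.19%.

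**Figure D1:**
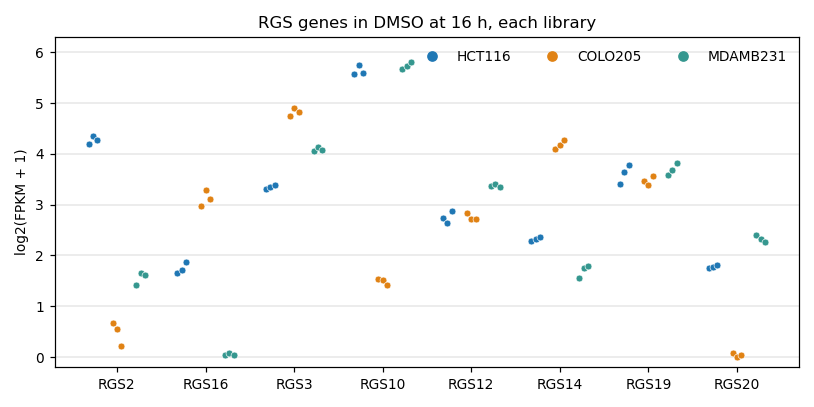
Level of each RGS gene, as log2(FPKM + 1), in the 3 DMSO libraries of each line at 16 h; each point is 1 library. RGS10 has a mean of 1.80 FPKM in COLO205 against 48.9 in HCT116 and 52.3 in MDAMB231, RGS16 is close to 0 in MDAMB231, and RGS19 lies between 9.44 and 13.1 FPKM in all 9 libraries.

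Which members differed between the lines in vehicle was read from limma on log2(FPKM + 1), where a gene counted as called if its p, adjusted by Benjamini-Hochberg across the genes tested in that comparison, was under 0.05. COLO205 against HCT116 called 6 of the 8 genes where 84.9% of all genes were called, MDAMB231 against HCT116 called 6 where 83.6% were, and MDAMB231 against COLO205 called all 8 where 86.4% were. The 8 genes were chosen by name from among the FPKM rows, with results of these data in view, and which values guided that choice is not recorded. For that reason these calls and all later ones state where each gene stood among all genes and are not independent evidence that these genes change. RGS10 in COLO205 was 0.0369 of its HCT116 mean (log2 change -4.15 ± 0.07 SE), and RGS20 differed by -1.73 ± 0.05 on the same scale, with 1 COLO205 library listed at 0. The ratio of RGS20 means was 0.0117, and the log2 value ran from -4.32 to -0.56 over the alternatives, which include other pseudocounts, since the COLO205 level is far below 1 FPKM. RGS19 was called only between MDAMB231 and COLO205 (0.23 ± 0.10, adjusted p = 0.0415). That call was lost when any of 4 libraries was left out, the first or second COLO205 or the second or the third MDAMB231 library in DMSO (adjusted p from 0.0718 to 0.161). It was also lost without a filter (adjusted p = 0.0658) and in a fit of all 30 libraries (0.0594).

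RGS2 was the member that ML-792 raised in most groups. In HCT116 at 16 h the DMSO libraries read 17.3, 19.4 and 18.4 FPKM and the ML-792 libraries 47.0, 49.1 and 48.0. The groups lay far apart, a 2.61-fold ratio of means, and the log2 change was 1.34 ± 0.24 (adjusted p = 0.00175, limma). RGS2 was the only member called there, 1 of 8 where 14.7% of all genes were called. The standard error is pooled over the 3 lines and so takes in the wide spread of COLO205; with a pseudocount of 0.1 in place of 1 the adjusted p was 0.0501, past the threshold.

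In COLO205 the DMSO libraries read 0.584, 0.457 and 0.155 FPKM for RGS2 and the ML-792 libraries 3.57, 1.88 and 0.70. All 3 treated libraries lay above all 3 vehicle libraries, at much lower levels than in HCT116, and the lowest treated value came from the library that stood apart. The log2 change was 1.02 ± 0.24 (adjusted p = 0.00402) and 1.39 ± 0.15 without that library (adjusted p = 4.84e-06). In COLO205 only the first and second ML-792 libraries reached 1 FPKM. RGS2 thus passed the filter of 1 FPKM in 3 libraries only through the other lines, and it was not tested in a fit of the COLO205 groups alone. The ratio of means was 5.15, larger than the log2 change conveys, since adding 1 FPKM compresses changes of genes this low.

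In MDAMB231, RGS2 read 1.68, 2.16 and 2.06 FPKM in DMSO and 3.04, 2.81 and 3.16 in ML-792. The groups did not overlap, yet the log2 change of 0.44 ± 0.24 was not called (adjusted p = 0.261). A fit of these 6 libraries alone called it (0.44 ± 0.07, adjusted p = 0.00438), again because the spread of the other lines no longer entered. Whether the ML-792 effect on RGS2 differed between lines was tested as an interaction. None of the 3 pairs of lines was called in the fit of the 18 libraries of 16 h: COLO205 minus HCT116 gave -0.32 ± 0.34 (95% interval -1.04 to 0.41, adjusted p = 0.58), MDAMB231 minus HCT116 gave -0.90 ± 0.34 (-1.63 to -0.17, adjusted p = 0.114) and MDAMB231 minus COLO205 gave -0.59 ± 0.34 (-1.32 to 0.14, adjusted p = 0.229). The MDAMB231 minus HCT116 value was called in a fit of these 12 libraries alone (-0.90 ± 0.09, adjusted p = 3.56e-05), in the fit of all 30 libraries (adjusted p = 0.037) and with a pseudocount of 5 (-0.98, adjusted p = 0.000121). MDAMB231 minus COLO205 became -0.95 ± 0.20 (adjusted p = 0.00308) without the COLO205 library that stood apart. COLO205 minus HCT116 became -0.66 (adjusted p = 0.0462) without the first COLO205 library with ML-792 and 0.05 (adjusted p = 0.919) without the third. The direction of COLO205 minus HCT116 also turned with the pseudocount, from 0.59 at 0.1 (not called) to -0.82 at 5 (called).

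**Figure D2:**
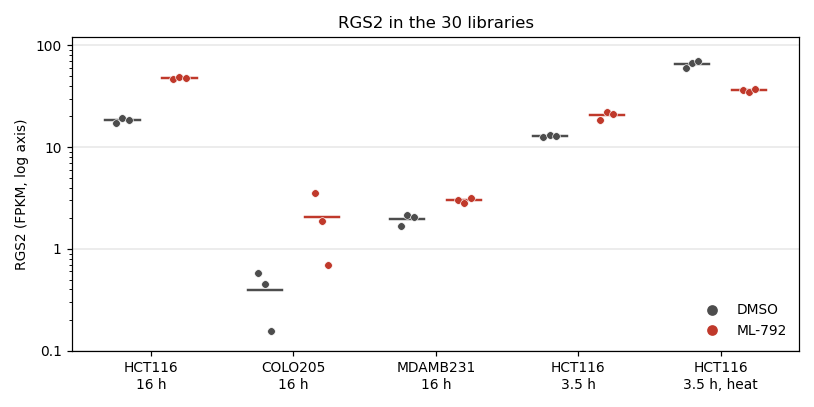
RGS2 in FPKM on a log axis in all 10 groups; each point is 1 library, each bar the group mean, grey for DMSO and red for ML-792. ML-792 libraries lie above DMSO libraries in the first 4 pairs and below them in heat shocked HCT116, where the DMSO mean is 65.6 and the ML-792 mean 36.3.

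At 3.5 h the rise of RGS2 was already measurable. HCT116 without heat read 12.6, 13.1 and 12.7 FPKM in DMSO and 18.4, 22.0 and 21.2 in ML-792, with no overlap. The log2 change was 0.64 ± 0.07 (adjusted p = 0.000435), and RGS2 was 1 of 147 genes called, 1.21% of all genes. It was again the only one of the 8 members called. In a fit of all 30 libraries, which shares the spread of COLO205, the adjusted p was 0.12. The log2 effect at 16 h exceeded that at 3.5 h by 0.70 ± 0.08 (adjusted p = 0.000298, where 2.4% of genes and 1 of 8 members were called), a call that was also lost in the fit of all 30 libraries (adjusted p = 0.311). The libraries of the 2 times differed in relative depth (0.371 to 0.480 against 0.664 to 1.0), and RGS2 in DMSO itself read 18.4 at 16 h against 12.8 at 3.5 h, so time and other differences between these sets of libraries cannot be told apart.

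Heat shock gave the highest RGS2 values of the study. In DMSO it rose from 12.8 ± 0.271 FPKM to 59.6, 67.5 and 69.9, a 5.13-fold ratio of means (log2 change 2.27 ± 0.07, adjusted p = 7.8e-11), in a comparison that called 49.5% of all genes and 6 of the 8 members. In ML-792 it rose from 20.5 ± 1.91 to 36.7, 35.1 and 36.9, a ratio of 1.77 (0.80 ± 0.07, adjusted p = 1.67e-06), where 61.7% of genes and 4 members were called. Every heat shocked library lay above every 3.5 h library without heat of the same treatment.

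ML-792 therefore stood on opposite sides of DMSO with and without heat: above it without heat, and below it after heat, where the log2 difference was -0.84 ± 0.07 (adjusted p = 4.05e-05, with 33.5% of genes and 3 of 8 members called). The difference between the 2 heat responses was -1.47 ± 0.10 (adjusted p = 2.15e-05), in a test that called 6.41% of all genes and RGS2 alone among the 8. By size it ranked second among the genes called lower in that test. These comparisons share their control libraries, so the values stand side by side and not as separate support. The call was present in all 20 alternatives run, with log2 values from -1.55 to -1.29. Beside it, COL1A1, a fibroblast marker, was at 1.59 ± 0.0569 FPKM in DMSO at 3.5 h without heat and 14.6 ± 1.23 after heat. It made up nearly all of the summed 6 blood, endothelial and fibroblast markers (1.55 to 1.65 without and 13.2 to 15.5 with heat in DMSO). The same sum was 5.69 to 6.34 in unheated HCT116 in DMSO at 16 h. COL1A2, the other collagen gene of that list, reached 1 FPKM in only 6 libraries, none of them of HCT116. PTPRC, the defining marker of blood cells, did not exceed 0.0593 in any library.

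**Figure D3:**
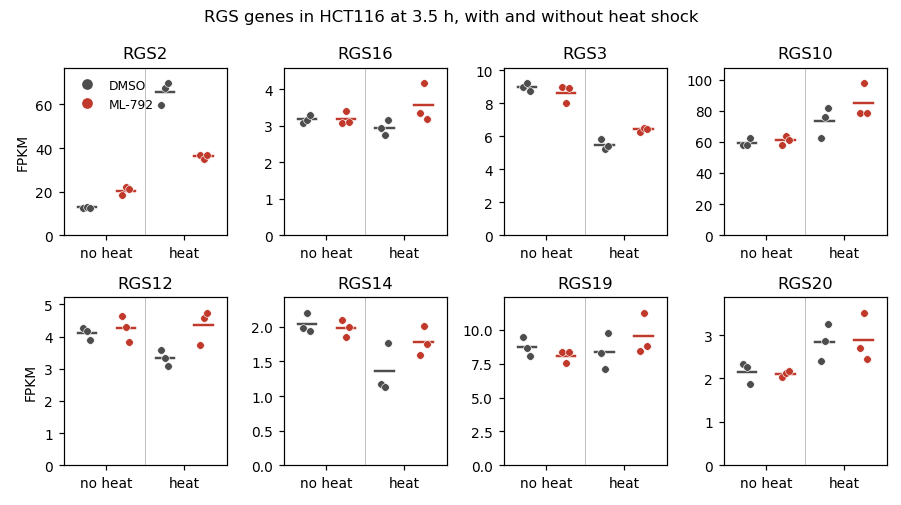
FPKM of the 8 RGS genes in HCT116 at 3.5 h, with and without heat shock; each point is 1 library, each bar the group mean, grey for DMSO and red for ML-792, and each axis starts at 0. RGS2 rises to 65.6 in DMSO and 36.3 in ML-792, RGS3 falls in both, and RGS16 and RGS19 stay within overlapping ranges in DMSO.

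The order of RGS2 levels over the 10 groups ran from heat shocked DMSO (65.6 ± 5.41) through ML-792 at 16 h (48.0 ± 1.05), heat shocked ML-792 (36.3 ± 0.976), ML-792 at 3.5 h (20.5 ± 1.91), DMSO at 16 h (18.4 ± 1.06) and DMSO at 3.5 h (12.8 ± 0.271), all HCT116, to the other lines, of which MDAMB231 with ML-792 was highest (3.0 ± 0.175) and COLO205 in DMSO lowest. Of the 9 neighbouring pairs in that order, 6 had ranges apart and 3 overlapped: ML-792 at 3.5 h with DMSO at 16 h, and the pairs around COLO205 with ML-792. RGS2 thereby gave 17.2 ± 0.261% of the RGS-named sum in HCT116 in DMSO at 16 h and 35.8 ± 1.42% in ML-792, and 12.3 ± 0.337% against 39.6 ± 0.745% before and after heat in DMSO. Its neighbours on chromosome 1 (looked at after the RGS2 values were known) did not share this range. RGS21, RGS1 and RGS13 did not exceed 0.0325 FPKM in any library. UCHL5, the next gene on the other side, read 23.9 in DMSO and 27.7 in ML-792 at 16 h in HCT116. At 3.5 h UCHL5 read 33.5 in DMSO and 37.1 in ML-792 without heat, and 37.7 and 30.8 after heat. Its ML-792 mean thus also lay above DMSO without heat and below it after heat. TROVE2 and GLRX2, the genes beyond it, had the same order, GLRX2 with 22.05 and 23.76 without heat and 28.33 and 17.08 after heat. Only group means of these neighbours were compared, and a link to RGS2 was not tested.

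RGS16, which acts on Gi and Gq subunits, was highest in COLO205. Its DMSO libraries there read 6.90, 8.78 and 7.63 FPKM and its ML-792 libraries 15.3, 13.5 and 2.86. The first and second treated libraries were above, and the third below, all vehicle libraries, so the log2 change of 0.15 ± 0.37 was not called (adjusted p = 0.812). Without that library it was 0.81 ± 0.09 (adjusted p = 5.03e-06), the difference from HCT116 was 0.81 ± 0.12 (adjusted p = 0.000224) and the difference of MDAMB231 from COLO205 was -0.70 ± 0.12 (adjusted p = 0.000649). RGS16 thus rests on 1 library in this line. In HCT116 the gene read 2.37 ± 0.27 in DMSO and 2.37 ± 0.285 in ML-792 at 16 h, with an interval of -0.79 to 0.80 set by the same COLO205 spread, and at 3.5 h the interval was -0.16 to 0.18 around a change of 0.01. Heat shock in DMSO gave -0.08 ± 0.08. In MDAMB231, RGS16 was between 0.0232 and 0.188 in all 6 libraries, far below the filter of 1 FPKM that it passed through the other lines.

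**Figure D4:**
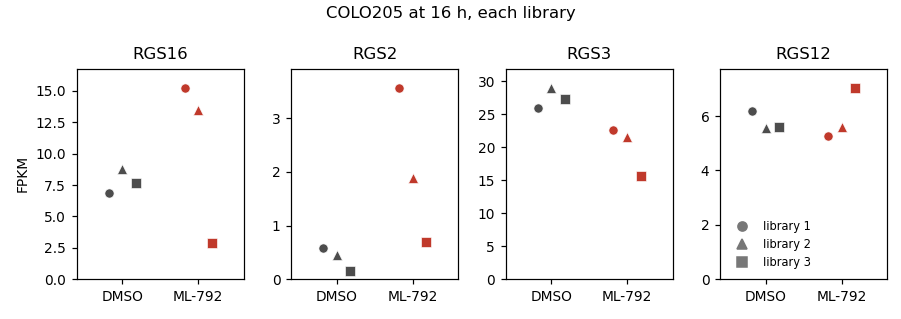
FPKM of RGS16, RGS2, RGS3 and RGS12 in the 3 DMSO and 3 ML-792 libraries of COLO205 at 16 h, with 1 symbol per library number and axes from 0. The third ML-792 library (red square) is the lowest of its group for RGS16 (2.86), RGS2 and RGS3 and the highest for RGS12; library numbers do not pair the groups.

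RGS3, a regulator of Gi and Gq made in several isoforms, fell in COLO205. Its libraries read 25.9, 29 and 27.3 FPKM in DMSO and 22.6, 21.5 and 15.7 in ML-792, with no overlap. The log2 change was -0.46 ± 0.10 (adjusted p = 0.00183), and -0.30 ± 0.07 without the library that stood apart (adjusted p = 0.00482). In HCT116 the values of 9.20 ± 0.261 in DMSO and 9.46 ± 1.12 in ML-792 overlapped, and the COLO205 effect was lower than the HCT116 effect by -0.49 ± 0.14 (adjusted p = 0.0227), 1 of 8 members called where 19.4% of genes were. Without the library that stood apart it was -0.33 ± 0.10 (adjusted p = 0.0282). That difference missed the threshold without the first HCT116 ML-792 library (adjusted p = 0.0554) or without the second COLO205 DMSO library (adjusted p = 0.0581). It was also not called in a fit of the compared groups only (adjusted p = 0.0544). MDAMB231 against HCT116 called none of the 8 members by limma where 10.8% of genes were called, and MDAMB231 against COLO205 none where 26% were.

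Heat shock lowered RGS3. In DMSO it went from 9.02, 9.25 and 8.76 FPKM to 5.82, 5.21 and 5.41 (log2 change -0.63 ± 0.06, adjusted p = 2.24e-06), and in ML-792 from 9.0, 8.01 and 8.93 to 6.29, 6.53 and 6.47 (-0.38 ± 0.06, adjusted p = 0.000146). RGS3 and RGS2 thus moved in opposite directions in heat shock, with groups that did not overlap in either treatment. After heat RGS3 was higher in ML-792 than in DMSO by 0.20 ± 0.06 (adjusted p = 0.0233), but the call was lost under other scalings (0.109 and 0.253) and without the second heat shocked library of either treatment (0.0977 and 0.0567), and the difference between the heat responses was not called (0.25 ± 0.08, adjusted p = 0.072).

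RGS10, a small regulator of Gi, was the most abundant member, in FPKM, in vehicle in HCT116 and MDAMB231. ML-792 lowered it in MDAMB231 from 50.1, 52.0 and 54.9 FPKM to 45.5, 42.4 and 46.4, the only member called in that line (1 of 8 where 16.9% of genes were called; -0.22 ± 0.07, adjusted p = 0.0303). The fall missed the threshold without the second ML-792 library (adjusted p = 0.135) or without the second or the third DMSO library (0.0733 and 0.127). The call was also lost with a pseudocount of 0.1 (adjusted p = 0.113), without a filter (0.0509) and in the fit of all 30 libraries (0.0927). In COLO205 it was lower at a level near 1 to 2 FPKM, from 1.88, 1.87 and 1.66 to 1.37, 1.57 and 1.08 (-0.26 ± 0.07, adjusted p = 0.00497, and -0.18 ± 0.06, adjusted p = 0.031, without the library that stood apart). With a pseudocount of 5, which weighs such low values less, that change was not called (-0.10, adjusted p = 0.0951). HCT116 at 16 h showed 48.9 ± 3.20 against 47.9 ± 1.20, a change of -0.03 with an interval of -0.17 to 0.11.

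After heat shock RGS10 read 62.6, 76.0 and 81.6 FPKM in DMSO against 58.0, 57.8 and 62.3 without heat, groups just apart (0.29 ± 0.10, adjusted p = 0.028). In ML-792 it read 78.7, 97.9 and 78.7 against 57.8, 64.0 and 61.0 (0.47 ± 0.10, adjusted p = 0.00157). These rises depend on the scale of the libraries: the median log2 change of all genes was 0.05 in DMSO and 0.10 in ML-792 with the values as deposited, and -0.16 in both when the libraries were set to equal totals. Under equal totals the DMSO change of RGS10 was 0.06 (adjusted p = 0.449) and under median-of-ratios scaling 0.21 (adjusted p = 0.0694). The call in DMSO was also lost without the first or second unheated library or the second or the third heated library (adjusted p from 0.0798 to 0.107). Equal totals added falls of RGS16 (-0.26, adjusted p = 0.00643) and RGS19 (-0.28, adjusted p = 0.0338) after heat in DMSO, and of RGS14 after heat in ML-792 (-0.30, adjusted p = 0.00888).

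RGS12, a large multidomain regulator, had ML-792 changes without heat of 0.05, 0.03, -0.04 and 0.04 on the log2 scale in HCT116, COLO205 and MDAMB231 at 16 h and HCT116 at 3.5 h, none called. Without the library that stood apart the COLO205 value was -0.08 (adjusted p = 0.574). Heat shock in DMSO lowered it from 4.27, 4.16 and 3.90 FPKM to 3.6, 3.33 and 3.08 (-0.24 ± 0.08, adjusted p = 0.0302), and after heat it was higher in ML-792 (3.75, 4.57 and 4.74) than in DMSO (0.30 ± 0.08, adjusted p = 0.0177). Neither call was present in every alternative. The fall was lost without 1 of 4 libraries in turn (adjusted p from 0.0682 to 0.0996), and the difference after heat was lost without the second heat shocked library of either treatment (0.0595 and 0.0569), under equal totals (0.24, adjusted p = 0.101) and in a fit of the compared groups only (adjusted p = 0.0926).

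RGS14, which binds Gi subunits and Ras proteins, was highest in COLO205 and fell there from 16.2, 17.2 and 18.3 FPKM in DMSO to 12.8, 14.8 and 15.7 in ML-792 (-0.25 ± 0.09, adjusted p = 0.0428, and -0.31 ± 0.10, adjusted p = 0.028, without the library that stood apart). That call missed the threshold without the first or second ML-792 library or the second or the third DMSO library (adjusted p from 0.0649 to 0.19). It was also lost with a pseudocount of 0.1 (adjusted p = 0.1), without a filter (0.0739) and in the fit of all 30 libraries (0.0541). In HCT116 and MDAMB231 at 16 h the changes were -0.17 ± 0.09 and -0.21 ± 0.09, neither called. Heat shock in DMSO lowered it from 1.99, 2.21 and 1.93 to 1.17, 1.13 and 1.77 (-0.38 ± 0.10, adjusted p = 0.00601). In ML-792 it read 2.10, 1.85 and 2.00 without heat and 1.59, 2.01 and 1.75 with it, overlapping (-0.10 ± 0.10, adjusted p = 0.375). The difference between these heat responses was 0.28 ± 0.14 (adjusted p = 0.184), and 0.40 (adjusted p = 0.0346) without the third heat shocked DMSO library.

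RGS19, a regulator of Gi that binds the scaffold GIPC1, varied least over the study. Its group means ran from 8.04 to 12 FPKM, a 1.49-fold range, and all 9 neighbouring pairs of groups overlapped. ML-792 lowered it in COLO205 from 10.1, 9.44 and 10.8 to 7.69, 7.37 and 9.06 (-0.30 ± 0.10, adjusted p = 0.0257, and -0.38 ± 0.10, adjusted p = 0.0113, without the library that stood apart). The call was lost without the first or second ML-792 library or the first or the third DMSO library (adjusted p from 0.0569 to 0.106). No other treatment or heat comparison called it.

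RGS20, a regulator of Gz and Gi, was highest in MDAMB231 (4.02 ± 0.262 FPKM in DMSO), present in HCT116 (2.42 ± 0.0722) and at most 0.123 in COLO205, where it passed the filter only through the other lines. ML-792 without heat gave no call in the 4 comparisons. With a pseudocount of 0.1, which weighs such low values more, the COLO205 change was called (0.69 ± 0.13, adjusted p = 0.000584), from 0.062, 0 and 0.0229 in DMSO to 0.0957, 0.0933 and 0.123. Heat shock raised it in DMSO from 2.33, 2.26 and 1.87 to 2.39, 2.85 and 3.25 (0.28 ± 0.11, adjusted p = 0.0426) and in ML-792 from 2.03, 2.12 and 2.17 to 2.69, 3.51 and 2.44 (0.31 ± 0.11, adjusted p = 0.0211). Both rises missed the threshold under median-of-ratios scaling (adjusted p = 0.0819 and 0.0938) and under equal totals (0.313 and 0.351). The first was also lost without 1 of 5 libraries in turn (adjusted p from 0.053 to 0.162), and the second without the second heated (0.0906) or the first unheated (0.0617) ML-792 library.

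**Figure D5:**
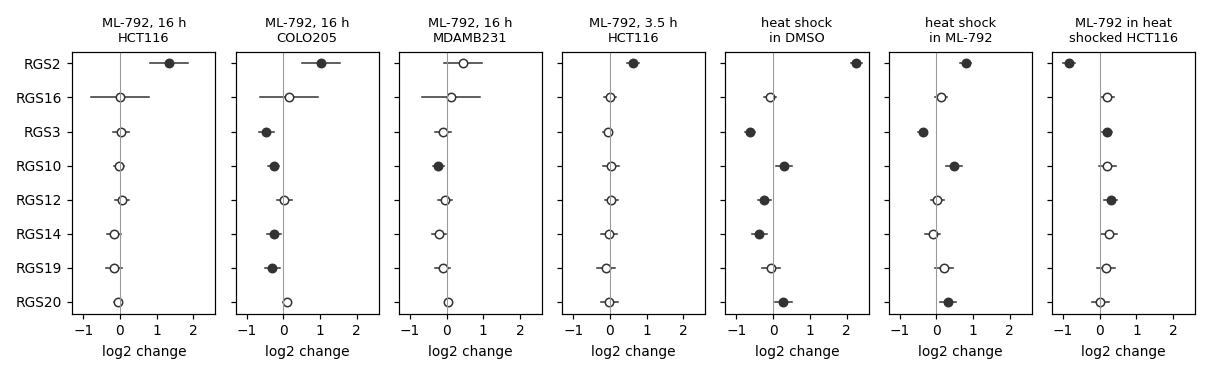
Log2 change on the log2(FPKM + 1) scale of each RGS gene in the 7 comparisons of 2 groups; each point is the limma estimate, each line its 95% interval, and filled points were called at an adjusted p under 0.05. RGS2 is the one gene called in 6 of the 7 comparisons, and COLO205 at 16 h is the one ML-792 comparison without heat with 5 of 8 members called, where 37% of all genes were.

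Counting members in this way, ML-792 in COLO205 called 5 of 8, RGS2 higher and RGS3, RGS10, RGS14 and RGS19 lower, with 19.4% of all genes called higher and 17.7% lower. Without the library that stood apart the same 5 and RGS16 were called, 6 of 8, where 32.5% of all genes were called in either direction. The median log2 change of the 8 was -0.11 there, beside 0.00 over all genes, and lay between -0.07 and 0.00 in the other ML-792 comparisons without heat. After heat in DMSO the called members split evenly, RGS2, RGS10 and RGS20 higher (28.9% of all genes) and RGS3, RGS12 and RGS14 lower (20.6%). After heat in ML-792, RGS2, RGS10 and RGS20 were called higher (39.3%) and RGS3 lower (22.3%).

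The other 13 RGS-named genes were low. RGS1, RGS8, RGS13, RGS18, RGS21 and RGS22 did not exceed 0.0373 FPKM in any library, and RGS4, RGS5, RGS6 and RGS17 passed the filter in the 16 h fit. RGS4, a regulator of Gi and Gq, was found above 1 FPKM only in MDAMB231, where it went from 2.76 ± 0.236 in DMSO to 1.33 ± 0.0932 in ML-792 (-0.69 ± 0.05, adjusted p = 6.76e-09). RGS2 in the same libraries was not called in that fit. RGS6 rose in HCT116 at 16 h from 1.02 ± 0.103 to 1.35 ± 0.0680 (0.22 ± 0.05, adjusted p = 0.00681). RGS5 changed by -0.02 to 0.14 with ML-792 at 16 h, uncalled, and rose after heat in ML-792 (0.17 ± 0.07, adjusted p = 0.0471), where RGS17 fell (-0.33 ± 0.11, adjusted p = 0.0178).

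Among the partners on which RGS proteins act, G alpha subunit transcripts had these calls under ML-792: of 12 tested at 16 h, 3 in HCT116, 2 in COLO205 and 2 in MDAMB231, where 14.7, 37 and 16.9% of all genes were called, and none of 10 by limma at 3.5 h, where 1.21% were (all members of these lists were assembled with results of these data known). GNA13, of the G12 class, rose in HCT116 (0.30 ± 0.06, adjusted p = 0.0015) and COLO205 (0.16 ± 0.06, adjusted p = 0.0282), and GNA15, of the Gq class, fell in MDAMB231 (-0.42 ± 0.06, adjusted p = 8.22e-05). The olfactory type subunit GNAL moved down in HCT116 (-0.15 ± 0.04) and up in COLO205 (0.32 ± 0.04). Without the library that stood apart the COLO205 values were 0.20 for GNA13 and 0.35 for GNAL, both called. After heat in DMSO, 1 of 10 rose and 4 fell, where 28.9% of all genes were called higher and 20.6% lower. GNAS, the stimulatory subunit, went from 328 to 439 FPKM (0.41 ± 0.07, adjusted p = 0.000429), while GNAI1, an inhibitory subunit, went from 39.7 to 28.2 (-0.48 ± 0.09, adjusted p = 0.000822) and GNA11, a Gq class target of RGS2, from 30.3 to 24.0 (-0.33 ± 0.06, adjusted p = 0.000528). GNA11 was lower after heat in DMSO and not in ML-792, and the difference of the responses was called (0.37 ± 0.08, adjusted p = 0.028).

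Of 13 G beta and gamma subunits tested at 16 h, 1 was called in HCT116, 3 in COLO205 (4 without the library that stood apart) and 2 in MDAMB231, beside 14.7, 37 and 16.9% of all genes. GNG11 rose in MDAMB231 from 54.5 to 68.4 FPKM (0.32 ± 0.04, adjusted p = 2.82e-05), and GNG12 rose in COLO205 (0.23 ± 0.04, adjusted p = 0.000616, and 0.22, adjusted p = 0.00258, without that library). After heat GNB3 rose in DMSO (0.52 ± 0.11, adjusted p = 0.00145) and GNG10 fell (-0.37 ± 0.07, adjusted p = 0.00103).

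The other regulators of G alpha were led by GPSM2, which holds Gi subunits in their GDP form and works in spindle orientation. It rose with ML-792 from 14.7 to 24.5 FPKM in HCT116 at 16 h (0.70 ± 0.07, adjusted p = 1.86e-06), from 7.68 to 13.9 in COLO205 (0.78 ± 0.07, adjusted p = 1.35e-07) and from 17.4 to 25.9 at 3.5 h (0.55 ± 0.07, adjusted p = 0.000955). Its effect in MDAMB231 was smaller than in HCT116 (-0.50 ± 0.10, adjusted p = 0.0024). Heat lowered it in ML-792 to 16.9 (-0.59 ± 0.07, adjusted p = 1.27e-05), and the heat response differed between the treatments (-0.48 ± 0.10, adjusted p = 0.0231). GPSM2 and RGS2 were thus both higher with ML-792 at 3.5 h and both had a lower heat response in ML-792. In all, 2 of 9 such regulators were called in HCT116 at 16 h, 5 in COLO205 and 1 in MDAMB231, beside 14.7, 37 and 16.9% of all genes. Without the library that stood apart 3 were called in COLO205, of which 2 were among the 5, and GPSM2 was at 0.69 (adjusted p = 4.44e-07).

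Genes with an RGS or related domain outside the RGS names had 3 of 14 called in HCT116, 2 in COLO205 (4 without the library that stood apart) and 1 in MDAMB231 at 16 h, beside 14.7, 37 and 16.9% of all genes. GRK5, a receptor kinase with such a domain, rose in COLO205 from 3.12 to 5.16 FPKM (0.58 ± 0.07, adjusted p = 3.59e-06, and 0.52, adjusted p = 2.81e-05, without that library). After heat, SNX14 was lower in ML-792 than in DMSO (-0.87 ± 0.14, adjusted p = 0.00199), and its heat response differed between the treatments (-0.80 ± 0.19, adjusted p = 0.0365). Effectors gave 3 of 7 called in HCT116, 5 in COLO205 (4 without that library) and 2 in MDAMB231, beside the same shares of all genes. The adenylyl cyclases ADCY3 and ADCY7 fell in each line at 16 h, by -0.17 to -0.28 for ADCY3 and -0.24 for ADCY7 in all 3. ADCY3 reached 1 FPKM in only 24 of the 30 libraries, with a lowest value of 0.114, where this scale compresses changes. Without the library that stood apart the fall of ADCY3 in COLO205 was not called (-0.18, adjusted p = 0.061). PLCB1, a phospholipase C beta downstream of Gq, rose in HCT116 (0.17 ± 0.04, adjusted p = 0.0066) and COLO205 (0.35 ± 0.04, adjusted p = 3.21e-06, and 0.35, adjusted p = 1.83e-05, without that library). It was low, at most 2.31 FPKM in any library, while PLCB3 of the same class ran from 5.90 to 44.4. Of the 5 subunits of eIF2B, the translation factor that RGS2 binds, none was called by limma with ML-792 in HCT116 at either time. The share of all genes called there was 14.7% at 16 h and 1.21% at 3.5 h. EIF2B2 (-0.18 ± 0.05) and EIF2B3 (-0.20 ± 0.05) fell in COLO205 (-0.13 and -0.21 without that library, both called), where 37% of all genes were called. EIF2B2 (0.39 ± 0.07) and EIF2B5 (0.23 ± 0.05) rose after heat in DMSO, where 49.5% of all genes were called. After heat in ML-792 EIF2B4 rose as well (0.30 ± 0.08, adjusted p = 0.00627), where 61.7% of all genes were called. EIF2B1 was lower in ML-792 than in DMSO after heat (-0.16 ± 0.05, adjusted p = 0.0373), where 33.5% were. EIF2B5, the subunit to which RGS2 binds, changed by 0.06 ± 0.04 in HCT116 at 16 h (adjusted p = 0.287).

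Genes whose group means of log2(FPKM + 1) tracked a member were sought among 11979 genes with a mean of 1 FPKM or more over the 10 groups, as a description, since all share the same libraries and the line differences dominate. RGS2 was tracked most closely by RGPD6 (r = 0.984), STOX1 (0.977), TERF2IP (0.98), DHRS7 (0.968) and PAPSS1 (0.968). RGPD6 is 1 of a family of near-identical copies whose fragments may be split. None had the range of RGS2: TERF2IP, a telomere protein, ran from 14.3 FPKM in COLO205 in DMSO to 33.4 in heat shocked DMSO. For the other members the closest were MAP3K1 (0.981) for RGS3, C2CD2 (0.998) for RGS10, BCAR1 (0.993) for RGS12, C10orf91 (0.992) for RGS14, MAP7 (0.997) for RGS16, C21orf2 (0.967) for RGS19 and PRCP (0.997) for RGS20. Among the members themselves RGS2 and RGS3 had r = -0.95, RGS10 and RGS14 -0.96, and RGS10 and RGS20 0.93 over the 10 group means.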

How the data were processed

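RNA of 30 libraries (10 groups of 3) was sequenced from poly(A) RNA with a stranded kit, per the labels' protocols. The authors deposited 1 table of FPKM values per gene and library. The submitters' processing notes name DESeq2 1.10.1 with no role; which aligner, build and gene models were used is not given in the sources used here. Fragment counts are not known, so no counting interval is given.

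FPKM were analysed as log2(FPKM + 1) with limma 3.58.1 in R 4.3.3 (trend and robust), keeping genes that reached 1 FPKM in 3 or more libraries. The 3 fits took the 18 libraries of 16 h (14251 genes), the 12 of 3.5 h (12191) and the 12 of HCT116 without heat at both times (12462). Calls rest on p-values adjusted by Benjamini-Hochberg across the genes tested in a comparison, under 0.05. In all, 120 changes of the 8 members were tested, and ± is SD for levels and SE for log2 changes. A fold on this scale understates changes of genes near 1 FPKM. Levels and figures used Python 3.11.15, pandas 2.3.3 and matplotlib 3.10.9. The model code was tested on simulated data.

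The members and the gene lists were chosen with earlier results of these data known. Named genes were all members, every tested gene of the other RGS names and eIF2B where called, the 3 genes of each other list with the smallest adjusted p in a comparison, and the 5 genes most like RGS2 and the closest to each other member. Attention to the third COLO205 library with ML-792, the chromosomal neighbours and the promoter motifs followed from values already seen. A gene of the list with RGS or related domains that the rule would name is not reported here.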

Additional observations from a re-analysis of the deposited data

Results flagged for a closer look

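Differences of an effect between conditions that passed the test of the difference itself were found for 3 values. The heat response of RGS2 in HCT116 was lower in ML-792 than in DMSO by a log2 value of -1.47 ± 0.10 (SE; adjusted p = 2.15e-05, limma), with all 3 heat shocked ML-792 libraries below all 3 heat shocked DMSO libraries. The ML-792 effect on RGS3 was lower in COLO205 than in HCT116 by -0.49 ± 0.14 (adjusted p = 0.0227), a call lost in 3 of 21 alternatives. The ML-792 effect on RGS2 in HCT116 was larger at 16 h than at 3.5 h by 0.70 ± 0.08 (adjusted p = 0.000298), where time and other differences between the libraries of the 2 times cannot be told apart. That call was lost in the fit of all 30 libraries (adjusted p = 0.311). Groups of 3 libraries are too small for a test of single outlying values.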

How the results depend on the processing

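Of 44 called changes among the 120, 28 stayed called in every alternative run and 16 were lost in at least 1; no called change reversed. Over 667 alternative values of called changes, 65 were no longer called, and 31 of 1322 values of uncalled changes were. Members called moved as follows. With a pseudocount of 0.1, ML-792 in HCT116 at 16 h and in MDAMB231 gave 0, COLO205 minus HCT116 gave 2 and MDAMB231 minus COLO205 gave 1; with 5 these differences gave 2 and 1, and MDAMB231 minus HCT116 gave 1. Without a filter MDAMB231 gave 0 and heat in DMSO 3; with a filter of 5 FPKM heat in DMSO gave 3, members below it being no longer tested. With equal totals, ML-792 after heat gave 1. A fit of all 30 libraries gave 0 for MDAMB231, 0 for 3.5 h, 0 for 16 h minus 3.5 h, and 1 each for MDAMB231 minus HCT116 and minus COLO205. A fit of the compared groups only gave 2 for MDAMB231, 1 for ML-792 after heat, 0 for COLO205 minus HCT116 and 1 for MDAMB231 minus HCT116. Leaving out each library gave 3 to 6 for COLO205, 0 to 1 for MDAMB231, 3 to 6 for heat in DMSO, 1 to 6 for ML-792 after heat, 1 to 2 for heat by ML-792, 0 to 2 for COLO205 minus HCT116 and 0 to 2 for MDAMB231 minus COLO205. Beyond these, the cause was not tested. Scaling moved the share of higher genes among all called from 58.4% to 43.5% (median of ratios) and 22.2% (equal totals) for heat in DMSO, from 63.8% to 42.7% and 24.2% for heat in ML-792, from 54.9% to 31.9% and 32.8% for ML-792 after heat, from 38.7% to 18.9% and 15% for heat by ML-792, from 56.4% to 44.9% and 35.4% for ML-792 in HCT116 at 16 h, and from 46.8% to 35.4% (equal totals) for 16 h minus 3.5 h. No paired analysis was possible because replicate numbers are absent from the labels, and libraries were numbered in accession order. Depth is not recorded, which limits what can be said of genes below 1 FPKM.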
